A study of Mus musculus with 2 samples.

Results

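The genes described here are 47 genes of G2 and mitosis, chosen by name as mitotic cyclins and kinases, kinetochore and spindle genes, kinesin motors, checkpoint and cytokinesis genes. All 47 have a row of their own among the 24369 gene rows of the expression table. The table holds type II pneumocytes (alveolar type 2 cells, which make pulmonary surfactant) taken by sorting lung cells of C57BL6 mice of wild-type genotype. There was 1 library at postnatal day 28 (P28) and 1 at postnatal day 7 (P7), and both ages were wild type and untreated as far as the labels say. Each library gave 1 RPKM per gene, a read number divided by gene length in kilobases and by library depth. Sort markers, sex and any pooling of animals are not stated in the labels. A single library per age allows no test and no p-value, and "higher" or "lower" compares these 2 libraries.

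Cells that pass from DNA replication to division switch on a shared set of genes in G2 and M phase. Cyclins A and B activate the kinase Cdk1, Polo-like and Aurora kinases build the spindle, and kinetochores hold each chromosome to it. The checkpoint holds back the anaphase-promoting complex until all chromosomes are attached, and cytokinesis then separates the daughter cells. Transcripts of these genes are low in cells at rest and are widely used as signs of proliferation. In the lung, type 2 cells divide while alveoli form after birth and renew themselves slowly in the adult.

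The lead measurement was that all 47 genes had lower RPKM at P28 than at P7. Their summed RPKM was 57.0 at P28 and 144 at P7, a ratio of 0.397, and the median ratio over the 47 genes was 0.358, or 2.79-fold lower at P28. Single ratios ran between 0.140 for the checkpoint kinase gene Ttk and 0.737 for Bub1. Of the 16731 genes with a value above 0 in a library, 59.8% had lower RPKM at P28, as did 60.7% of the 9653 genes that reached 1 RPKM in at least 1 library. In these bulk samples, fewer dividing cells and less RNA of these genes per cell cannot be told apart. Markers of other lung cells and sex-linked genes also differed between the libraries, as given below, and their part was not tested.

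Many of these genes are known targets of the MuvB complex with B-Myb and FoxM1, which recognises the cell cycle genes homology region (CHR), and of NF-Y, which recognises the CCAAT box. Promoters were therefore read as sequence, in the RefSeq windows of 250 bases before to 50 bases after a gene's start (GRCm38.p6). Of the 47 genes, 39 had an entry, and they gave 41 promoters. The 7 stretches printed here belong to the marker of proliferation Mki67, to Top2a, Cdk1 and Ccnb2, to the anaphase-promoting complex partners Cdc20 and Ube2c, and to Bub1, whose level differed least. Each stretch is 150 bases long, reads 5′ to 3′ on the strand of its gene and ends before the first transcribed base that RefSeq gives for that gene. In Mki67, Top2a and Ube2c that base lies 71, 10 and 1 bases upstream of the start that sets the windows (the table start). Window counts and the plot of match positions use the table start. From it, the Mki67 CHR matches lie at -116 to -111 and -98 to -93. Capitals mark the letters TTTGAA or TTTAAA (CHR) and CCAAT on either strand, so that TTCAAA and ATTGG are the same letters on the opposite strand.
Mki67, chr7:135716451-135716600, minus strand: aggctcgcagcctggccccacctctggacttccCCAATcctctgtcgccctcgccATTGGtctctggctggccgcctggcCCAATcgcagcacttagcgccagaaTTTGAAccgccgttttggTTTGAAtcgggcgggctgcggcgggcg
Top2a, chr11:99024200-99024349, minus strand: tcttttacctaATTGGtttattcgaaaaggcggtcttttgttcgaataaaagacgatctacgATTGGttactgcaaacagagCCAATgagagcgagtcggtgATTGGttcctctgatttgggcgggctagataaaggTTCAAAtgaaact
Cdk1, chr10:69352913-69353062, minus strand: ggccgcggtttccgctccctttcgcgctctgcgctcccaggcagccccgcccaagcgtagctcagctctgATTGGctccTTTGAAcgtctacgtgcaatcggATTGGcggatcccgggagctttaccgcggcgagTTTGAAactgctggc
Ccnb2, chr9:70421555-70421704, minus strand: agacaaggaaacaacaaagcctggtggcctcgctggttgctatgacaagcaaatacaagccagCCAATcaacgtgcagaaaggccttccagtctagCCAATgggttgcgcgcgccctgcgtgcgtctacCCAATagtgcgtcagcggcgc
Cdc20, chr4:118437344-118437493, minus strand: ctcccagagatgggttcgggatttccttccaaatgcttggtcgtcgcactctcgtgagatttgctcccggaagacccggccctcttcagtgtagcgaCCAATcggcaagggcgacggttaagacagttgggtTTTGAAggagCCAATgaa
Ube2c, chr2:164769778-164769927, plus strand: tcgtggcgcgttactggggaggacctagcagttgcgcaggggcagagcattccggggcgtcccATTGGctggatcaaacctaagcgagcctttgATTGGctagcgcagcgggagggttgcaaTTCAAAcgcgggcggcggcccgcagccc
Bub1, chr2:127831860-127832009, minus strand: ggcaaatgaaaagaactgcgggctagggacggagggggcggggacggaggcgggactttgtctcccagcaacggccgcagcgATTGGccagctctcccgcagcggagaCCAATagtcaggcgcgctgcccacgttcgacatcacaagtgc

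The Mki67 stretch held 2 CHR matches and 3 CCAAT matches, and the Top2a stretch held 1 and 4. In Cdk1 there were 2 CHR and 2 CCAAT matches, while Cdc20 and Ube2c each had 1 CHR match and 2 CCAAT matches. The Ccnb2 stretch had 3 CCAAT matches and no CHR match, and the nearest CHR letters of that promoter lay at bases 5 to 10 after the start. The Bub1 stretch had 2 CCAAT matches and no CHR match. GENCODE places the start further upstream than the RefSeq table for 4 of these genes, by 26 bases in Cdk1, 31 in Ube2c, 9 in Cdc20 and 6 in Bub1. By that annotation the CHR letters nearest the start in Cdk1 and Ube2c, and the CCAAT letters nearest the start in Cdc20, lie within the first exon. For Mki67, Top2a and Ccnb2 the GENCODE start lies downstream of the stretch, at bases 135716361, 99024189 and 70421547.

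Over the whole 300 bases, 36 of the 41 promoters of these genes held CHR letters (87.8%), against 27.6% of all 32851 promoters in the table. CCAAT letters stood in 33 of the 41 (80.5%), against 37.4% of all promoters. Both were present in 31 of the 41 (75.6%), against 10.7% of all promoters. In the 150 bases around the table start (100 before to 50 after), 26 of the 41 held both (63.4%), against 3.03% of all. The CCAAT matches of Mki67 lie outside these 150 bases, at -188 to -137 from the table start. In 1 promoter entry a CHR match and a CCAAT match shared bases, and TTTAAA reads the same on both strands. The E2F letters TTTCCCGC, TTTGGCGC, TTTCGCGC or TTTGCCGC were in 2 of the 41 (4.88%), against 2.26% of all promoters. Of the genes with an entry, Mad2l1, Nuf2 and Nusap1 had neither CHR nor CCAAT letters in the window. These matches describe letters and are not measured binding sites.

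**Figure D1:**
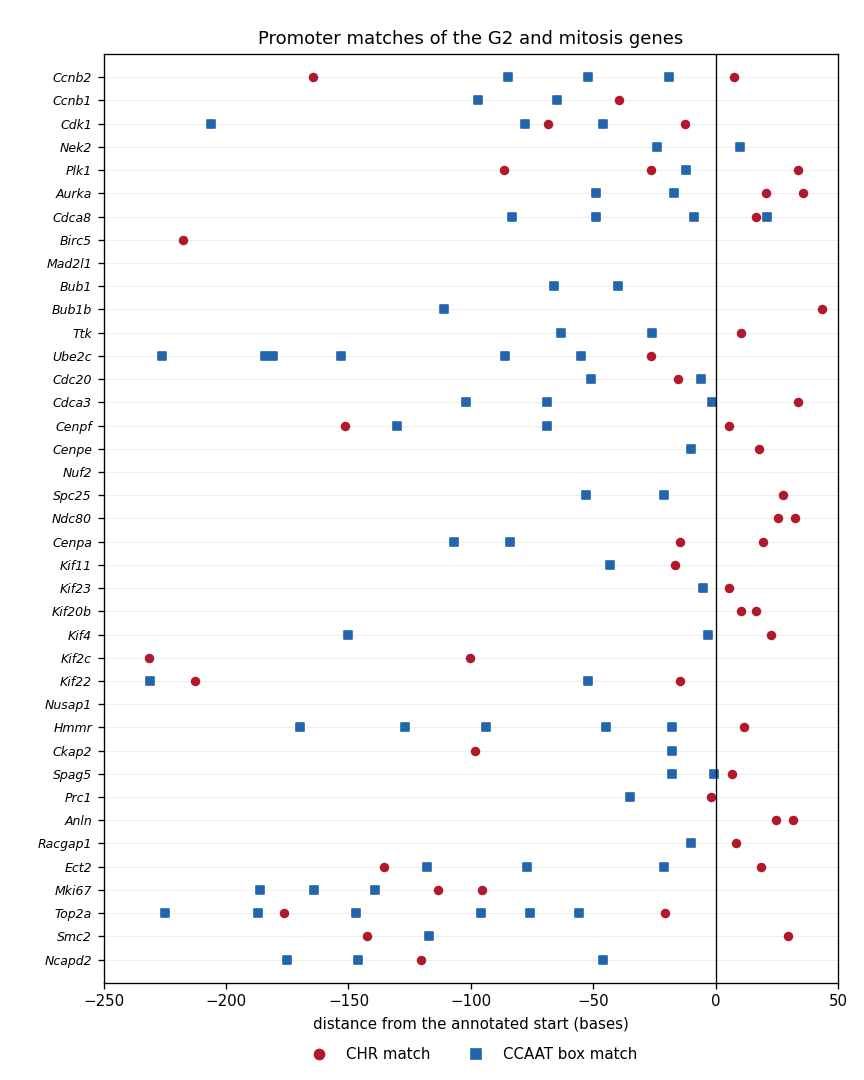
Position of CHR matches (red circles) and CCAAT box matches (blue squares) in the promoters of the 39 genes with an entry, by distance in bases from the annotated start (vertical line at 0); genes with 2 entries show 1. CHR matches lie mostly near the start, and CCAAT matches mostly upstream of it.

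The 47 genes were expressed at low levels in both libraries. At P28 their RPKM had a median of 0.876 and ran between 0.106 (Kif2c) and 6.73 (Ube2c), while at P7 the median was 2.05 and the range 0.523 (Kif22) to 15.6 (Ube2c). They held 0.0398% of all RPKM at P28 and 0.132% at P7. The order of levels was much the same at both ages, with Ube2c, Smc4, Mki67 and Top2a highest in each library and a Spearman rho of 0.880 across the 47 genes, which share both libraries. These 4 genes carried 33.8% of the summed RPKM at P28 and 35.4% at P7, and without them the ratio of the sums was 0.406. Of the 47 genes, 42 reached 1 RPKM in at least 1 library, 19 at P28 and 42 at P7, so 23 reached it at P7 alone. The remaining 5 (Ttk, Kif20a, Kif22, Kif2c and Spag5) stayed under 1 RPKM at both ages.

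**Figure D2:**
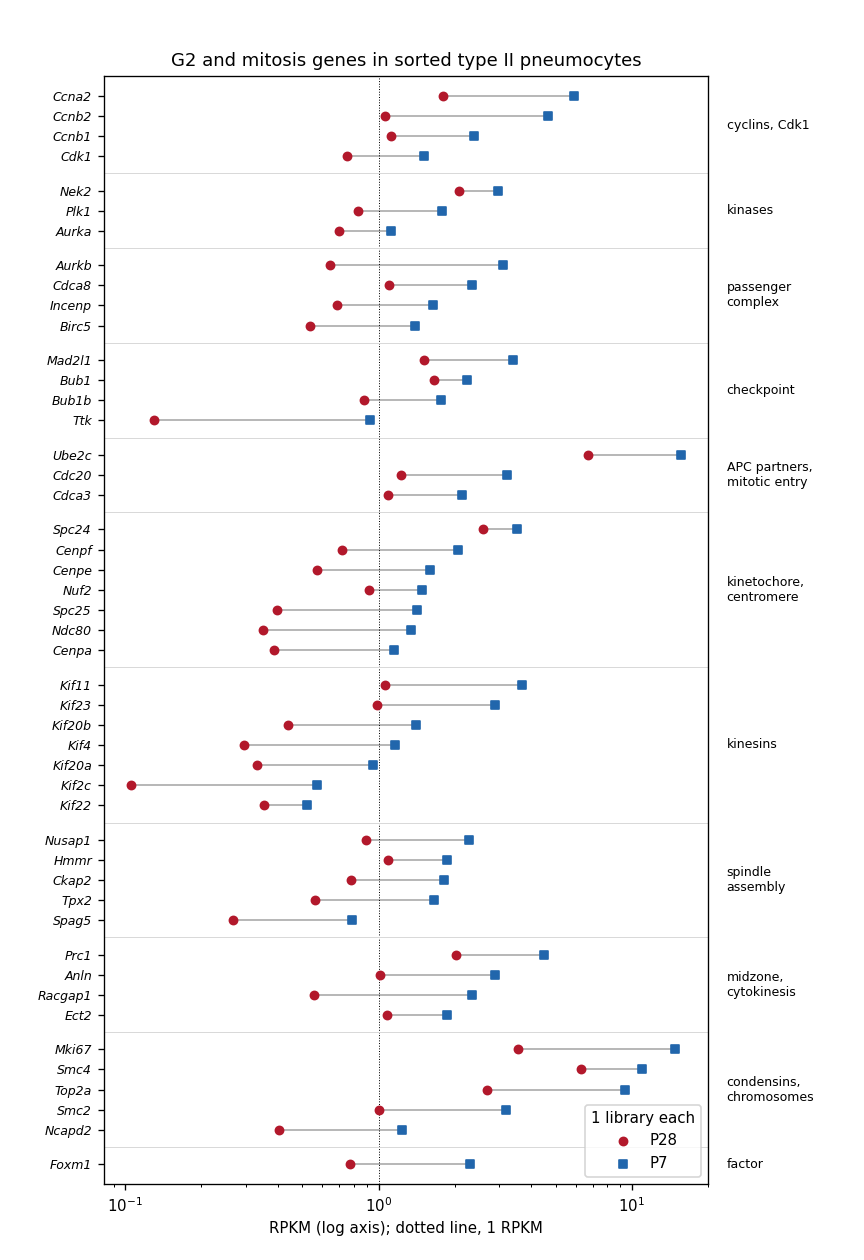
RPKM of each of the 47 genes (log axis) at P28 (red circles) and P7 (blue squares), 1 library each, grouped by role; the dotted line marks 1 RPKM. In every row the P28 point lies left of the P7 point, and Ube2c, Mki67, Smc4 and Top2a reach the highest levels.

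Read numbers set the precision of each ratio. The spacing of low RPKM values gave a depth at P28 of 1.40 times that at P7, and whole read numbers for most of the 47 genes, which together had 4970 reads at P28 and 9884 at P7. Intervals below are exact (Clopper-Pearson) 95% counting intervals of the ratio of P28 over P7, and cover counting error only, not variation between mice. For 45 of the 47 genes the interval lay wholly below 1. That held for 25.3% of the 16494 genes with a value above 0 and a known length. It held for 33.4% of the 9589 genes that reached 1 RPKM and had a known length. The exceptions were Aurka and Kif22. For 37 of the 47 the ratio was 0.5 or less, against 16.8% of the 16731 genes with a value above 0 and 6.25% of the 9653 genes that reached 1 RPKM. Only for 20 of the 47 did the whole interval lie below 0.5, and the share of all genes with such an interval was not computed.

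Calls of 2-fold were made on the scale of log2(RPKM + 1), which understates the difference of low genes. On it, 9 of the 47 were at least 2-fold lower at P28 and 0 were higher, and all 9 were among the 42 that reached 1 RPKM. Of the 9653 genes that reached 1 RPKM, 1.96% were lower and 1.18% higher. Aurkb (0.644 RPKM at P28), Racgap1 (0.557) and Smc2 (0.9998) are among the 9 and reached 1 RPKM at P7 alone. The 9 were Mki67 (log2 ratio -1.79), Top2a (-1.50), Ccnb2 (-1.46), Aurkb (-1.32), Ccna2 (-1.31), Kif11 (-1.18), Ube2c (-1.10), Racgap1 (-1.10) and Smc2 (-1.06). The median log2 ratio was -0.72 over all 47 genes and -0.74 over the 42, beside -0.08 over the 9653 genes. The count of 9 depended on the pseudocount and the scaling, with 31 at a pseudocount of 0.1, 1 at a pseudocount of 5, and 16 when both libraries were rescaled to the same total. That rescaling moved the median of all genes to -0.36. The split of all genes was 114 higher and 189 lower as deposited, 62 and 388 with equal totals, and 144 and 151 with the median of all genes set to 0. Every one of the genes kept a log2 ratio below 0 under all 8 alternatives. That covers the 42 or fewer that each filter let through, or all 47 without a filter. Other pseudocounts and filters cannot change that sign, and equal totals, with or without the 10 most abundant genes, lower P28 further. Only setting the median of all genes to 0 or making upper quartiles equal could have changed it.

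**Figure D3:**
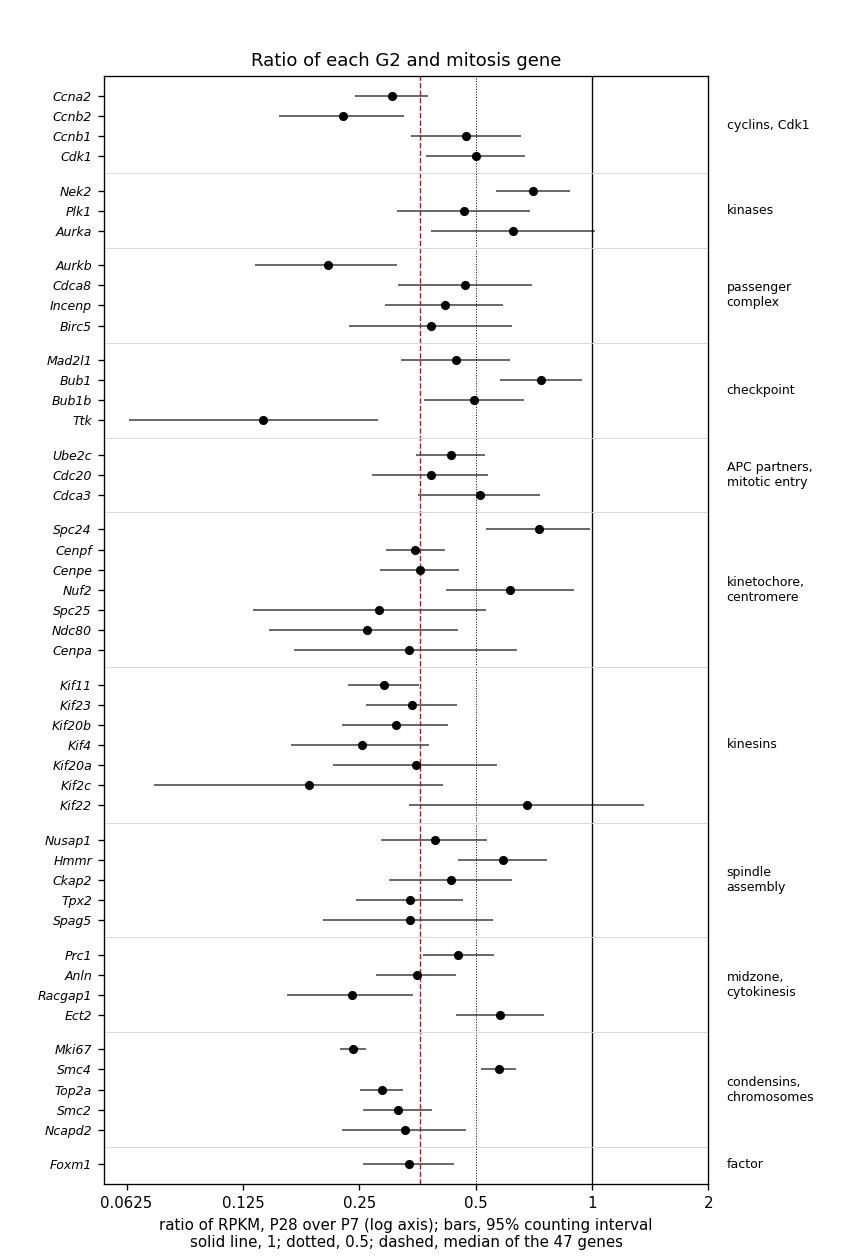
Ratio of RPKM at P28 over P7 for each of the 47 genes (points, log axis) with its exact 95% counting interval (bars), by role; lines mark 1 (solid), 0.5 (dotted) and the median of 0.358 (dashed). All points lie left of 1, and only the bars of Aurka and Kif22 reach it.

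The mitotic cyclins and their kinase were all lower at P28, with ratios of 0.227 to 0.499. Ccnb2, encoding cyclin B2, had 1.06 RPKM at P28 and 4.64 RPKM at P7, a ratio of 0.227 (interval 0.155 to 0.327). Ccna2, encoding cyclin A2, which acts in S phase and G2, had 1.80 RPKM at P28 and 5.92 at P7, a ratio of 0.303 (0.244 to 0.375). Ccnb1, encoding cyclin B1, the partner of Cdk1 at mitotic entry, differed less, with 1.12 RPKM at P28 and 2.38 at P7, a ratio of 0.472 (0.339 to 0.655). Cdk1 itself had 0.754 RPKM at P28 and 1.51 at P7, a ratio of 0.499 (0.372 to 0.670). The ratio of Ccnb1 was 2.08 times that of Ccnb2, with an exact counting interval of 1.26 to 3.45, and that of Ccna2 was 0.642 times that of Ccnb1 (0.433 to 0.957). Ccna2 lies on chromosome 3 with 510 exon bases shared with Exosc9 on the opposite strand. Exosc9, an exosome subunit gene, had 1.13 RPKM at P28 and 1.71 at P7, and reads of the pair cannot be told apart without strand.

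The kinases of spindle building had ratios of 0.467 to 0.703. Plk1, the Polo-like kinase of mitotic entry and spindle function, had 0.831 RPKM at P28 and 1.78 at P7 (ratio 0.467, 0.313 to 0.690). Nek2, a kinase that lets centrosomes part, had 2.07 RPKM at P28 and 2.95 at P7 (ratio 0.703, 0.563 to 0.878). Aurka, Aurora kinase A of the spindle poles, had 0.700 RPKM at P28 and 1.12 at P7, from 34 and 39 reads, and its interval of 0.382 to 1.02 held 1.

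Aurora kinase B, the enzyme of the chromosomal passenger complex, differed much more than Aurora kinase A. Aurkb had 0.644 RPKM at P28 and 3.10 at P7, a ratio of 0.207 (0.134 to 0.312). The ratio of Aurka was 3.01 times that of Aurkb, with a counting interval of 1.56 to 5.79. The other subunits of the complex stood at intermediate ratios, 0.384 for Birc5 (survivin), 0.416 for the scaffold gene Incenp and 0.470 for Cdca8 (borealin). Cdca8 had 1.10 RPKM at P28 and 2.34 at P7, Incenp 0.683 and 1.64, and Birc5 0.536 and 1.40. Against Aurkb, the counting intervals of the ratio of ratios excluded 1 for Incenp and Cdca8 and held 1 for Birc5 (0.541, 0.280 to 1.04).

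The spindle checkpoint genes held both the lowest and the highest ratio. Ttk, encoding the kinase Mps1 that starts checkpoint signalling, had 0.130 RPKM at P28 and 0.929 at P7. That rests on 10 reads at P28 and 51 at P7, and gives a ratio of 0.140 (0.0636 to 0.280). Bub1, a checkpoint kinase at the kinetochore, had 1.65 RPKM at P28 and 2.24 at P7, a ratio of 0.737 (0.577 to 0.943). Its relative Bub1b, encoding BubR1 of the mitotic checkpoint complex, had 0.876 RPKM at P28 and 1.76 at P7, a ratio of 0.496. The Bub1 ratio was 1.49 times the Bub1b ratio, with an interval of 1.01 to 2.20. That interval comes close to 1, and reads of Bub1 came from mean transcript length. Mad2l1, encoding the Cdc20 inhibitor Mad2, had 1.51 RPKM at P28 and 3.39 at P7 (ratio 0.445, 0.321 to 0.614).

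Genes of protein destruction in mitosis were lower at P28 and among the more abundant. Ube2c, the ubiquitin-conjugating enzyme of the anaphase-promoting complex, was the highest of the 47 genes in both libraries, with 6.73 RPKM at P28 and 15.6 at P7. Its ratio was 0.431 (0.350 to 0.528). It shares 592 exon bases with Tnnc2, a muscle troponin gene on the opposite strand that was listed at 0 at P28 and 0.0821 RPKM at P7. Cdc20, the activator that the checkpoint restrains, had 1.23 RPKM at P28 and 3.21 at P7, a ratio of 0.383 (0.270 to 0.538). Cdc20 shares 53 exon bases with Elovl1, a fatty acid elongase gene on the opposite strand with 114 RPKM at P28 and 45.4 at P7, so Elovl1 differed in the other direction. Cdca3, a trigger of mitotic entry, had 1.09 RPKM at P28 and 2.14 at P7 (ratio 0.512, 0.355 to 0.732).

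Of the 7 kinetochore and centromere genes, 5 had ratios of 0.5 or less. Cenpa, encoding the centromeric histone H3 variant, had 0.386 RPKM at P28 and 1.15 at P7 (ratio 0.336, 0.169 to 0.638, from 15 and 32 reads). Cenpe, a kinetochore kinesin, had 0.572 RPKM at P28 and 1.60 at P7 (ratio 0.358), and the outer kinetochore gene Cenpf had 0.717 and 2.05 RPKM (ratio 0.349). The interval was 0.282 to 0.452 for Cenpe, from 111 and 222 reads, and 0.293 to 0.415 for Cenpf, from 196 and 402 reads.

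The 4 subunits of the NDC80 complex, which binds microtubules as 1 rod, did not share a ratio. Ndc80 had 0.351 RPKM at P28 and 1.34 at P7 (ratio 0.262, 0.146 to 0.450), and Spc25 had 0.396 and 1.41 RPKM (0.280, 0.133 to 0.532). Nuf2, which pairs with Ndc80 in the complex, had 0.913 RPKM at P28 and 1.49 at P7 (0.614, 0.419 to 0.897). Spc24, the partner of Spc25, had 2.58 RPKM at P28 and 3.53 at P7 (0.730, 0.531 to 0.990). The low ratios of Ndc80 and Spc25 could not be told from each other, and neither could those of Nuf2 and Spc24. In all 4 pairs across these sets, which were formed from the ratios themselves, the interval excluded 1. It was 0.358 (0.186 to 0.684) for Ndc80 over Spc24, but came close to 1 for Nuf2 over Spc25 (2.19, 1.02 to 5.10). Spc25 rests on 13 reads at P28 and 34 at P7, and reads of Spc24 and Spc25 came from mean transcript length.

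Kinesin motors were lower in all 7 cases, and in 6 the interval lay below 1. Kif11, the motor that pushes spindle poles apart, had 1.06 RPKM at P28 and 3.68 at P7 (ratio 0.289, 0.233 to 0.357). Kif23, a motor of the central spindle, had 0.985 RPKM at P28 and 2.88 at P7 (0.342, 0.260 to 0.446). Kif2c, a microtubule depolymerase at centromeres, had the lowest level at P28, 0.106 RPKM from 8 reads, with 0.571 RPKM at P7 (0.185, 0.0734 to 0.411). Kif4, a chromosome-bound motor, had 0.293 RPKM at P28 and 1.16 at P7 (0.254, 0.166 to 0.379). It shares 832 exon bases with Pdzd11 on the opposite strand, which had 9.90 RPKM at P28 and 10.01 at P7. The cytokinesis motor gene Kif20a had 0.331 RPKM at P28 and 0.947 at P7 (0.349, 0.213 to 0.567), and its relative Kif20b had 0.439 and 1.41 RPKM (0.311, 0.226 to 0.425). Kif20a shares 1271 exon bases with Cdc23 on the opposite strand, which had 3.63 RPKM at P28 and 4.17 at P7, a ratio of 0.870. Cdc23 was thus above Kif20a at both ages, and reads of the pair cannot be told apart without strand. Kif22, which moves chromosome arms, had 0.355 RPKM at P28 and 0.523 at P7, and with 18 and 19 reads its interval ran from 0.336 to 1.37.

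Spindle assembly factors had ratios of 0.338 to 0.587. Tpx2, which activates Aurora A on the spindle, had 0.559 RPKM at P28 and 1.65 at P7 (ratio 0.338, 0.245 to 0.463). Nusap1, a microtubule bundling factor, had 0.893 RPKM at P28 and 2.28 at P7 (0.391, 0.285 to 0.534). Ckap2, a spindle-associated protein, had 0.782 and 1.81 RPKM (0.431, 0.297 to 0.620). Spag5 (astrin) was lower in level, with 0.266 RPKM at P28 and 0.787 at P7 (0.338, 0.201 to 0.553). Hmmr, a hyaluronan receptor that also acts at spindle poles, differed least of the set, with 1.09 RPKM at P28 and 1.86 at P7 (0.587, 0.449 to 0.766).

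Genes of the spindle midzone and cytokinesis were lower at P28 by unequal amounts. Racgap1, which forms centralspindlin with Kif23, had 0.557 RPKM at P28 and 2.33 at P7, a ratio of 0.239 (0.163 to 0.344). The ratio of Kif23 was 1.43 times that of Racgap1, with an interval of 0.900 to 2.29 that held 1. Ect2, the exchange factor that turns on RhoA for the contractile ring, had 1.08 RPKM at P28 and 1.86 at P7 (0.578, 0.445 to 0.750). Anln (anillin), a scaffold of that ring, had 1.01 RPKM at P28 and 2.88 at P7 (0.352, 0.277 to 0.445). Prc1, the bundler of midzone microtubules, had 2.02 and 4.48 RPKM (0.450, 0.365 to 0.556), and shares 911 exon bases with Rccd1 on the opposite strand.

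The chromosome structure genes included 3 of the 4 most abundant of the 47 and were all lower at P28. Mki67 (chromosome 7, 135689784 to 135716361 in GRCm38, minus strand), which coats mitotic chromosomes and is the common marker of dividing cells, had 3.56 RPKM at P28 and 14.8 at P7. Its ratio of 0.241 (0.223 to 0.261) came from 881 and 2615 reads. Top2a, topoisomerase II alpha, had 2.69 RPKM at P28 and 9.41 at P7 (0.286, 0.251 to 0.324). Of the condensin genes, Smc2 had 1.00 RPKM at P28 and 3.18 at P7 (0.314, 0.255 to 0.386), and Ncapd2 had 0.405 and 1.23 RPKM (0.329, 0.226 to 0.473). Their partner Smc4 had 6.31 RPKM at P28 and 11.0 at P7, a ratio of 0.573 (0.516 to 0.636). The Smc2 ratio was 0.548 times the Smc4 ratio (0.434 to 0.691), although both proteins form the core of the same complex, and the Smc4 ratio was 1.74 times that of Ncapd2 (1.19 to 2.58).

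Foxm1, the transcription factor that activates many of these genes in G2, had 0.773 RPKM at P28 and 2.30 at P7. Its ratio of 0.336 (0.256 to 0.438) was near the median of the 47 genes.

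Set against the median ratio of 0.358, the counting interval held that value for 29 of the 47 genes. It lay wholly below for 7, namely Mki67, Top2a, Ccnb2, Aurkb, Ttk, Racgap1 and Kif11. It lay wholly above for 11, namely Cdk1, Aurka, Nek2, Bub1, Bub1b, Nuf2, Spc24, Hmmr, Prc1, Ect2 and Smc4. Of 21 pairs of genes within the same complex or family, 12 had a ratio of ratios whose interval excluded 1. Several genes recur in these pairs, and the share among pairs of other genes was not computed, so the count says nothing particular about complexes. The ratio did not follow the level closely, with a Spearman rho of 0.161 between mean RPKM and ratio across the 47 genes.

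Of 94 other G2 and mitosis genes in the table, 87 had lower RPKM at P28 and 7 higher, 46 had a ratio of 0.5 or less, against 16.8% of the 16731 genes with a value above 0, and the median ratio was 0.507. On the log2(RPKM + 1) scale 2 of the 54 that reached 1 RPKM were at least 2-fold lower, the condensin gene Ncaph (0.619 RPKM at P28, 2.26 at P7) and the tubulin gene Tubb5, of a family whose similar copies can share reads (11.6 RPKM at P28, 25.2 at P7), and 0 were higher. Against 1.96% lower among all 9653 genes, 2 of 54 is near the background. With equal totals, 7 were lower, against 4.02% of all 9653 genes. The next largest log2 ratios were those of Fbxo5 (-0.92), an inhibitor of the anaphase-promoting complex, the kinesin gene Kif15 (-0.89), Casc5 (-0.88), which encodes the kinetochore scaffold Knl1, and Depdc1a (-0.83). Among the 7 that were higher, picked out after their values were seen, Pttg1 (securin, the anaphase inhibitor that the anaphase-promoting complex destroys) had 7.04 RPKM at P28 and 3.89 at P7, a ratio of 1.81 (1.30 to 2.56). The anaphase-promoting complex subunit gene Anapc11 had 1.18 and 0.520 RPKM (2.26, 1.51 to 3.48), and the kinetochore gene Nsl1 had 1.71 and 0.956 RPKM (1.79, 1.37 to 2.33). The remaining 4 were Bub3, Zw10, Mis12 and Tubb4b, with ratios of 1.12 to 1.26.

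Of 60 genes of S phase and DNA replication, 59 had lower RPKM at P28, 36 had a ratio of 0.5 or less, against 16.8% of genes with a value above 0, and the median ratio was 0.453. At least 2-fold lower on the log2 scale were 5 of the 45 that reached 1 RPKM, against 1.96% of all 9653 genes. With equal totals 10 were lower, against 4.02% of all 9653 genes. The 5 were Rrm2, a ribonucleotide reductase subunit gene (log2 ratio -1.46), Gins2 (-1.35), Tipin (-1.07), Mcm2 (-1.01) and Uhrf1. Uhrf1, a maintenance methylation factor gene, had 0.301 RPKM at P28 and 1.60 at P7. Gins2 and Mcm2 belong to the replicative helicase. Gins2 (0.818 RPKM at P28), Mcm2 (0.663) and Uhrf1 reached 1 RPKM at P7 alone. The log2 ratios of Mcm2 and Uhrf1 lie close to the cut-off. Rfc3, a clamp loader subunit gene, followed with -0.91.

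Of 24 genes of the MuvB, B-Myb, E2F and pocket protein machinery, which includes Foxm1, 23 had lower RPKM at P28, against 59.8% of genes with a value above 0. A ratio of 0.5 or less was found for 5 of the 24, near the 16.8% of genes with a value above 0, and the median ratio was 0.718. E2f8, a late repressor of the E2F family, was the 1 gene of the 20 that reached 1 RPKM to be at least 2-fold lower, with 0.231 RPKM at P28 and 1.60 at P7 (ratio 0.145, 0.0859 to 0.233). The CCAAT-binding subunit gene Nfya had 3.81 and 6.33 RPKM (0.602, 0.520 to 0.696), and the MuvB subunit genes Lin9 and Lin37 had ratios of 0.515 and 0.621. E2f6 had a ratio of 0.682. The B-Myb gene Mybl2, named after its values were seen, had 0.176 RPKM at P28 and 0.429 at P7 (0.409, 0.207 to 0.783).

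**Figure D4:**
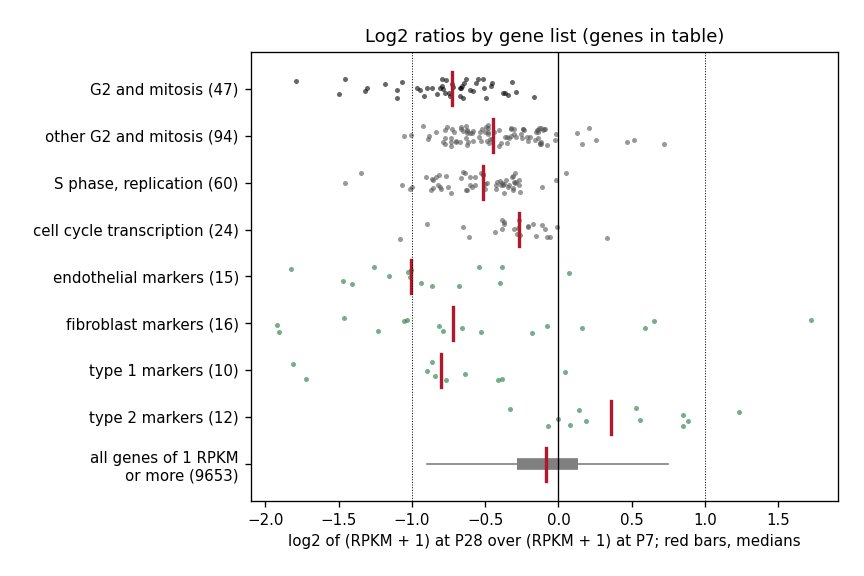
Log2 ratio of (RPKM + 1) at P28 over P7 for each gene of a list (points) with the list median (red bars); for all 9653 genes of 1 RPKM or more, the thick bar spans the middle 50% and the thin line the middle 95%. The 47 genes have a median of -0.72 and none lies above 0, and the medians are -0.72 for fibroblast and 0.36 for type 2 markers.

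Markers of other cells of the lung moved in these libraries as well. Type 2 cell markers were high in both, with a summed RPKM of 31284 at P28 and 17876 at P7 over 12 genes. The 3 most abundant at P7 were Sftpc (24085 RPKM at P28, 13343 at P7), Cxcl15 (1820 and 1012) and Slc34a2 (1115 and 978). Of 15 endothelial markers 14 were lower at P28, with a summed RPKM of 30.2 at P28 and 66.3 at P7 and a median ratio of 0.369. None of them was at 0, and the most abundant at P7 were Calcrl (5.68 RPKM at P28, 12.4 at P7) and Esam (10.2 and 9.68). Of 16 fibroblast and mesenchymal markers 12 were lower, with a summed RPKM of 136 at P28 and 285 at P7 and a median ratio of 0.435, and the 2 most abundant at P7 were Sparc (117 RPKM at P28, 240 at P7) and Fbln5 (2.08 and 10.6). The defining fibroblast markers Col1a1, Pdgfra and Dcn were above 0 in both libraries, and Pdgfra and Dcn were higher at P28, while Lum and Inmt were listed at 0 at P7. Their part in the lower mitosis genes was not tested.

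Erythroid markers were lower, with a summed RPKM of 1.73 at P28 and 47.9 at P7, and the 2 most abundant at P7 were the globin genes Hbb-b1 (0.348 RPKM at P28, 17.0 at P7) and Hbb-bs (0.185 and 9.03), whose reads can be shared. Club cell markers were higher, with a summed RPKM of 19064 at P28 and 7270 at P7, and the 2 most abundant at P7 were Scgb1a1 (18104 RPKM at P28, 6764 at P7) and Scgb3a2 (302 and 277). Type 1 cell markers summed to 260 RPKM at P28 and 441 at P7, and ciliated cell markers to 211 and 218. The macrophage markers Marco, C1qa, C1qb, Siglecf and Adgre1 were listed at 0 in both libraries, with 4.10 RPKM at P28 and 3.61 at P7 over all 12. Leukocyte markers summed to 3.19 and 3.98 RPKM over 11 genes, mesothelial markers to 4.01 and 6.83 over 4, and basal markers to 0.289 and 0.611 over 5, of which Krt15 (0.236 and 0.594) and Ngfr (0 and 0.0167) led at P7. Xist had 0.245 RPKM at P28 and 52.7 at P7, while the Y-linked genes Ddx3y, Kdm5d, Uty and Eif2s3y had 2.16 to 7.19 RPKM at P28 and were at 0 at P7, and for each difference between these libraries age cannot be told apart from sex.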

How the data were processed

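The series measured RNA of sorted mouse type II pneumocytes by paired-end Illumina sequencing, with Nextera XT libraries per the labels' protocols. RPKM values per gene were made and deposited by the authors. Per the submitters' processing notes, TopHat2 2.0.9 and the mouse builds GRCm38 and mm10 were named. The RPKM program, annotation and filters were not given in the sources used here.

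Samples were grouped by age from the labels, 1 library each, so no test was made. Ratios are P28 over P7. The 9653 genes that reached 1 RPKM at either age entered the calls, at 2-fold on the scale of log2(RPKM + 1). The spacing of low RPKM values gave the depth. At the spacing that fitted best, 58.3% of 2333 low genes at P28 and 59.5% of 2538 at P7 lay within 0.05 of a whole read. A spacing fixed beforehand would give 10% by chance, and the chance level of a best fit was not computed. A whole read pair was found for 40 of the 47 genes, and the mean transcript length gave the read number of the other 7. Of 36 genes with under 200 reads at P7, 30 had a pair, against a mean of 1.3 at 20 shifted ratios. Intervals of a single ratio are exact Clopper-Pearson at 95%. Those of a ratio of ratios are conditional exact 95% intervals of the odds ratio of the read numbers. Simulated coverage of the single-ratio intervals used the known read numbers and depth. It could not test intervals from recovered reads. Over genes with a known length, reads came to 7124936 at P28 and 4644113 at P7. Total RPKM was 143071 at P28 and 108758 at P7, and the 10 most abundant genes held 44.0% at P28 and 27.9% at P7.

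Genes named outside the 47 were the 6 of each list with the largest log2 ratio, past the filter, besides those said to be picked afterwards. Markers named were the 2 most abundant at P7 of lists whose summed RPKM differed 2-fold, the 3 most abundant type 2 markers at P7, and those at 0 or defining a cell type. The 47 genes and the lists were chosen with earlier results of these data known. Promoter sequences came from RefSeq (GRCm38.p6), and exon overlaps from GENCODE models of GRCm38. Overlaps not named above were 232 exon bases of Cdca8, 172 of Nusap1 and 237 of Ncapd2. Nothing states that counting used strand. Alternatives were other pseudocounts, filters, scalings and transcript lengths. Python 3.11.15, pandas 2.3.3, numpy 2.4.6, scipy 1.17.1 and matplotlib 3.10.9 were used.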

Additional observations from a re-analysis of the deposited data

How the results depend on the processing

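With 1 library per age, nothing here measures variation between mice, leaving out a replicate was not possible, and intervals cover counting error only. No paired analysis was possible because each age has 1 library. Under none of the alternatives did a ratio of the 47 genes change direction. Other pseudocounts, filters and transcript lengths could not have changed it. With a pseudocount of 0.1, 31 of the 42 genes past the filter were at least 2-fold lower (median log2 ratio -1.29), as were 19 other G2 and mitosis genes, 21 S phase genes and 530 of all genes, with 226 higher. With a pseudocount of 5 these were 1 (median -0.25), 0, 0 and 34, with 39 higher. A filter of 5 RPKM kept 5 of the 47 genes, of which 4 were lower (median -1.31). With both libraries at the same total RPKM, 16 were lower (median -0.88), with 7 other G2 and mitosis genes, 10 S phase genes and 388 of all genes, and 62 higher. The cause of these shifts was not tested beyond the settings themselves. With the median of all genes at 0, 8 were lower (median -0.66). Without the filter, with equal upper quartiles, and with equal totals without the 10 most abundant genes, 9 were lower. An alternative chosen after seeing the data, read numbers from the mean transcript length alone, left 45 intervals wholly below 1.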
